A study of Mus musculus with 42 samples.

Results

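The genes described here are a set of 47 interferon-stimulated genes, taken as a list of symbols and followed through the livers of lean and obese mice with and without the receptor ChemR23 (gene symbol Cmklr1). The list was chosen with earlier results of these data known, so its shares of called genes describe the list and do not test it. Of the 47, 46 were listed and tested in all 6 comparison tables, out of 12742 genes that the tables share, and the remaining member, Ifi27, is not analysed here. Gene expression was measured by RNA sequencing of whole liver in 42 male mice, 7 in each of 6 groups. WT mice were littermates of ChemR23 KO mice, which were made with CRISPR/Cas9 on the C57BL/6J background. The WT lean and KO lean groups ate a diet with 10% of its energy as fat, and the WT obese and KO obese groups a diet with 60%, starting at 6 weeks of age and lasting 15 weeks, and all 4 groups were injected with vehicle (ethanol in PBS). The WT obese+RvE1 and KO obese+RvE1 groups ate the 60% diet and were injected intraperitoneally with 300 ng of resolvin E1 (RvE1), a lipid mediator that binds ChemR23, on 4 days. The deletion is present in every cell of the KO mice, and whole liver was sequenced, so fewer cells of a type and less RNA per cell cannot be told apart in any value below.

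Interferons are cytokines that cells release on sensing foreign or misplaced nucleic acid. Type I interferons bind the receptor pair Ifnar1 and Ifnar2 and, through the kinases Jak1 and Tyk2, activate a complex with the subunits Stat2 and Irf9, which binds a DNA sequence called the interferon-stimulated response element. Interferon gamma, the type II interferon, acts through Ifngr1 and Ifngr2 and leads to binding at a different sequence, the gamma-activated site. The genes switched on by these factors encode sensors of viral RNA, enzymes that degrade RNA or stop translation, GTPases that attack the vacuoles of microbes, and the machinery that cuts and loads peptides for antigen presentation. In liver these genes are active in hepatocytes as well as in Kupffer cells, the resident macrophages, and in other immune and endothelial cells.

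The response element has a core in which the letters GAAA recur after a gap of 2 bases, so the stretch around each gene's start was searched for GAAA, any 2 bases and GAAA (the response element core). It was also searched for TTC, any 3 bases and GAA as the core of the gamma-activated site, each on either strand. RefSeq start-site windows on build GRCm38.p6, running from 250 bases before to 50 bases after the start (300 bases), were matched by symbol for 34 of the 47 genes. The response element core occurred in the windows of 20 of the 34 (58.8%), against 3.99% of all 27025 genes with a window. The gamma-activated core occurred in 11 of the 34 (32.4%), against 9.55% of all genes, and both occurred in 7 (20.6%), against 0.614%. The matches of the 2 motifs shared bases in 1 of these windows. A match gives the letters present and not a site bound by any factor.

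The windows of Ifit1, Ifit3 and Isg15 are printed here because they belong to members whose counts are followed below and because each holds more than 1 match. Ifit1 was called higher in KO lean mice and Ifit3 higher in KO obese mice, whereas Isg15 was called in no comparison. Each runs 5′ to 3′ along the strand of its gene, and capitals mark every base covered by the response element core or its reverse complement.
Ifit1, chr19:34640639-34640938, plus strand: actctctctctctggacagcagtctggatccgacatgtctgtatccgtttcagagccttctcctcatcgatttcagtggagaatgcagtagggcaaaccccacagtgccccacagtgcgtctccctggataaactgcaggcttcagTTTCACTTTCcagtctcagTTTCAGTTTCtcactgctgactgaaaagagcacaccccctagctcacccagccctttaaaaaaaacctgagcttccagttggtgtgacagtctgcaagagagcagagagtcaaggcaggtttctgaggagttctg
Ifit3, chr19:34583279-34583578, plus strand: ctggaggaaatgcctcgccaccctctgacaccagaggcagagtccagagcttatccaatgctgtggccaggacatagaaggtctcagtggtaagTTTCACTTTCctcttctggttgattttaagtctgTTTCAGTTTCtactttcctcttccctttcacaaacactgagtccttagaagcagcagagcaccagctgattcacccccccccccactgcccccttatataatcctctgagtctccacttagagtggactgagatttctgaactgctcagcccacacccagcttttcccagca
Isg15, chr4:156200769-156201068, minus strand: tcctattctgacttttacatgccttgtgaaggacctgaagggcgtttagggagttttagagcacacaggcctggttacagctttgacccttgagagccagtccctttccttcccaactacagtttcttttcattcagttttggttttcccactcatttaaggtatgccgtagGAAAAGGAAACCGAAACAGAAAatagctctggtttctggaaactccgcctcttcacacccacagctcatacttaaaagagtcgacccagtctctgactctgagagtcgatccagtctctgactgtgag

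In the Ifit1 window the matches began 104 and 85 bases before the start, and in the Ifit3 window 156 and 122 bases before it. In the Isg15 window 3 overlapping matches ran together, from 78, 72 and 66 bases before the start. The same core, with 8 bases on either side, is shown for 3 more members that differ in level and function: Bst2, which tethers budding virus to the cell surface, Rsad2 (viperin), which makes a chain-terminating nucleotide, and Irgm1, which guards the cell's own membranes from the other GTPases of its family. The stretches of Bst2 and Irgm1 each hold 2 overlapping matches.
Bst2, chr8:71537579-71537610, minus strand, 130 bases before the start: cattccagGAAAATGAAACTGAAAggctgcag
Rsad2, chr12:26456555-26456580, minus strand, 120 bases before the start: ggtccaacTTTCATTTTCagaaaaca
Irgm1, chr11:48871427-48871458, minus strand, 30 bases before the start: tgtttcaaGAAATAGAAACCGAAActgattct

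Among the members called in any comparison below, the response element core was found in the windows of Ifit1 and Ifit3 and in neither orientation in those of Irf7, Psmb9, Ifi44 and Isg20. Ifi27l2a, Dhx58 and Zbp1 had no window in the table. The window of Psmb9 is shown because its gene and Tap1, 2 members of the antigen-presentation group, start from the same stretch of DNA in opposite directions (the Tap1 window covers chr17:34187306-34187605 on the plus strand). No base is in capitals, as neither motif was found in it.
Psmb9, chr17:34187281-34187580, minus strand: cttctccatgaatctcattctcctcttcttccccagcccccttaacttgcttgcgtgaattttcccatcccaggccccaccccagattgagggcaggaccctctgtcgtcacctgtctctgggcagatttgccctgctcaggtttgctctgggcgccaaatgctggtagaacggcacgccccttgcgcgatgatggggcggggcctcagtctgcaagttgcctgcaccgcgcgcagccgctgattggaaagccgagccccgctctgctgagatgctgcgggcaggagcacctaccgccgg

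The 46 listed genes were all active in these livers, at levels that differed 732-fold from the highest to the lowest. Levels between genes are given here as RPKM (reads per kb of exon, scaled to the depth of the library), averaged over the 42 mice. Iigp1, a GTPase that coats the vacuoles of intracellular parasites, was the most abundant at 122, followed by Bst2 at 54.1 and the related GTPases Igtp at 24.4 and Irgm2 at 19.2. Ifit1, which binds viral RNA that lacks the cap methylation of the host, stood at 15.0. The median member stood at 4.76, 11 members were above 10 and 6 were below 1. Each of the 46 had reads in every mouse.

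At the low end stood the 2′-5′ oligoadenylate synthetases Oas1g at 0.641 and Oas3 at 0.167, and the dynamin-like GTPase Mx1 at 0.594. Oas3 rested on 7 to 89 reads per mouse, so a change in it was harder to see than one in Iigp1, with at least 7849 reads in every mouse. Many members share a chromosome: 8 are on chromosome 11 (among them Igtp, Irgm1, Irgm2 and Tgtp1) and 7 on chromosome 5 (the Oas genes and Gbp6). Another 5 are on chromosome 16 and 3 on chromosome 19 (the Ifit genes). Some of these are neighbouring related copies, such as the Ifit genes, and others, such as Irf1, Xaf1 and Dhx58 on chromosome 11, are not. Reads of near-identical copies such as Oas1a and Oas1g, or of Igtp and Irgm2, whose annotations overlap on the same strand, may have been split or lost in counting.

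**Figure D1:**
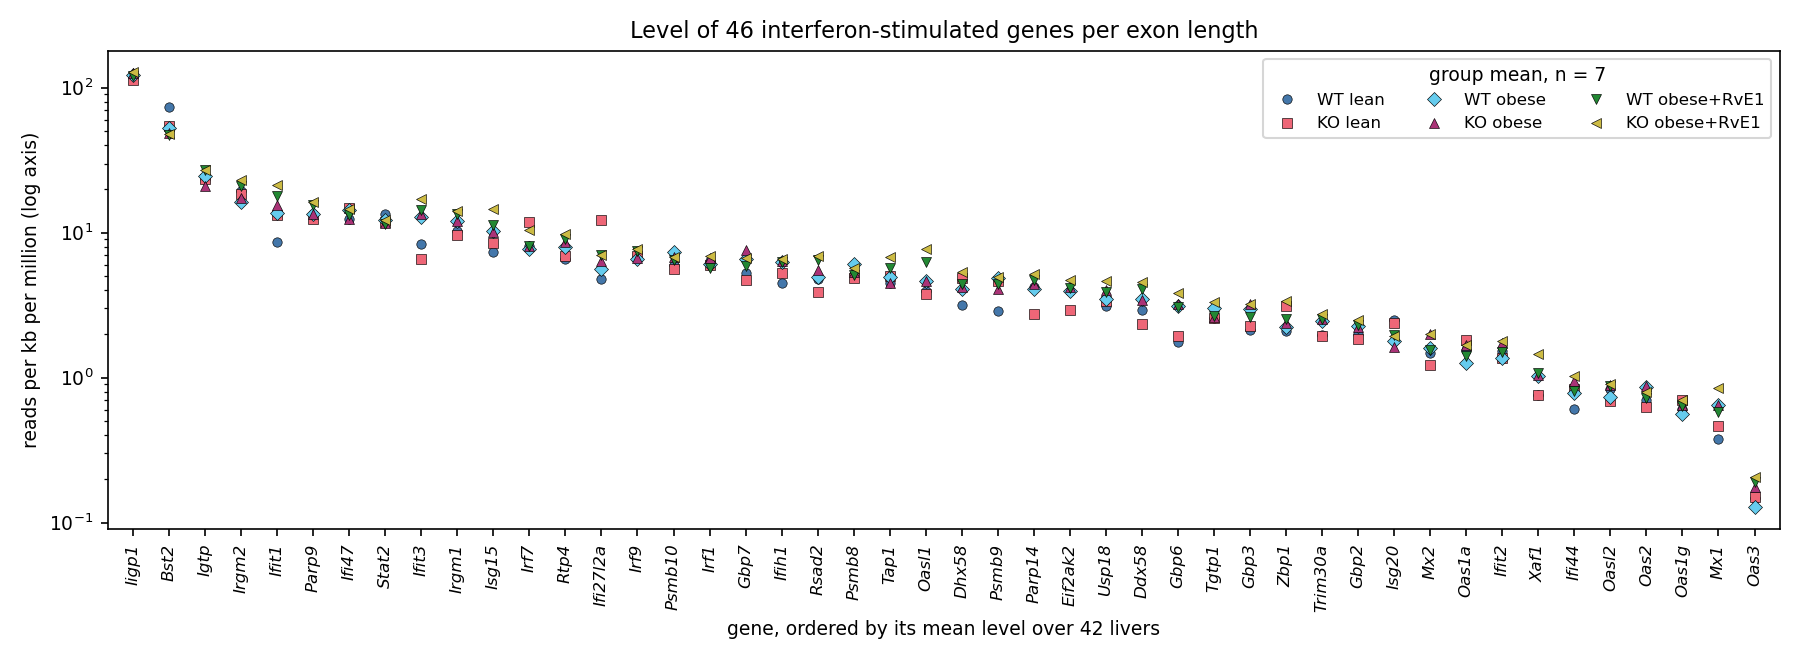
Mean level of each of the 46 interferon-stimulated genes in each of the 6 groups (n = 7 mice each), in RPKM on a log axis, with genes ordered along the horizontal axis by their mean over 42 livers. Group means lie apart for some genes, such as Ifi27l2a (4.79 in WT lean, 12.3 in KO lean) and Ifit3 (6.57 in KO lean, 17.2 in KO obese+RvE1). The span between genes is wider, as Iigp1 (122) and Oas3 (0.167) differ 732-fold.

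Each comparison below was tested on the normalized counts of its own table, which are reads divided by a size factor and may be compared only within that table, so a group has slightly different values in different tables. Genes were called in limma where the p-value, adjusted by Benjamini-Hochberg (BH), fell under 0.1 with a fold change above 1.5, and log2 fold changes are written as log2 FC. Values are normalized counts given as the lowest, the median and the highest of 7 mice. Reads on listed genes per mouse ran from 15992556 to 43841273, with a median of 24298307. The targeted gene was checked first: Cmklr1 ran from 9.72 to 22.6 in KO lean against 40.8 to 114 in WT lean mice, and from 5.08 to 23.2 in KO obese against 33.3 to 102 in WT obese mice, with no overlap in either pair. Alb and 5 other hepatocyte markers were among the abundant genes of every group and none was called in any comparison.

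The first question was what loss of ChemR23 does to interferon-stimulated genes in lean liver. In KO lean compared with WT lean mice, 7 of the 46 genes were called (15.2%), all 7 of them higher in KO lean mice, against 6.65% of all genes called and 3.94% called higher. The 7 were Ifi27l2a, Zbp1, Ifit1, Ifi44, Psmb9, Dhx58 and Irf7. The other 39 members were not called, and no member's groups were free of overlap, against 0.744% of all genes. Of the 46 log2 FCs 36 were above 0 (78.3%), against 50% of all genes, with a median of 0.21 and a median over all genes of -0.00. This tilt was not confined to lean mice. In KO obese compared with WT obese mice 34 were above 0 (73.9%, against 49.4% of all genes). With RvE1 the count was 31 in WT obese mice (67.4%, against 51.2%) and 32 in KO obese mice (69.6%, against 48.5%). In WT obese compared with WT lean mice it was 27 (58.7%, against 50.5%). Single mice were often low or high in many members at once, so the 46 signs are not independent. In fits that each left out 1 mouse, the members' median log2 FC ran from 0.13 to 0.28 for the lean groups. It ran from 0.01 to 0.19 in KO obese compared with WT obese mice, and from 0.005 to 0.18 with RvE1 in WT obese mice. Both low ends came without WT obese replicate 1.

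Ifi27l2a encodes a small hydrophobic protein of the Ifi27 family and lies at chr12:103442167-103443680 on the minus strand. Its counts were 72.9, 144 and 237 in KO lean mice and 38.5, 47.4 and 78.5 in WT lean mice. The groups met only at their edges, with 5 of 7 KO lean mice above the highest WT lean mouse. The log2 FC was 1.38 (SE 0.25, limma BH-adjusted p = 0.0302), the largest among the members in this comparison. Per length, Ifi27l2a stood at 12.3 ± 4.84 RPKM in KO lean mice and 4.79 ± 1.23 in WT lean mice (SD, n = 7 each), and the means of the 4 obese groups lay between those values.

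Of the sensors of foreign nucleic acid, Zbp1, which binds left-handed nucleic acid and can trigger cell death, had counts of 203, 269.9 and 335 in KO lean mice and 102, 141 and 285 in WT lean mice. Most KO lean mice lay within the upper part of the WT range, with 3 above it, and the log2 FC was 0.77 (SE 0.20, limma BH-adjusted p = 0.0423). Dhx58 (LGP2), a helicase that tunes RNA sensing, had counts of 208, 419 and 542 in KO lean mice and 124, 214 and 370.5 in WT lean mice. Here 4 KO lean mice were above every WT lean mouse, and the log2 FC was 0.74 (SE 0.23, limma BH-adjusted p = 0.0615).

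The 2 helicases that start the signal gave different values. Ifih1 (MDA5), which senses long double-stranded RNA, had counts of 959, 1046 and 1242 in KO lean mice and 605, 836 and 1073 in WT lean mice, an adjusted p of 0.0761 in limma and a fold change of 1.3, below the fold required. Ddx58 (RIG-I), which senses short RNA with a triphosphate end, had a log2 FC of -0.16 (limma BH-adjusted p = 0.528).

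Among the direct antiviral effectors, Ifit1 had counts of 672, 808 and 1275 in KO lean mice and 259.8, 539.7 and 848 in WT lean mice, and 3 of the KO lean mice lay above the WT range. The log2 FC of Ifit1 was 0.82 (SE 0.22, limma BH-adjusted p = 0.0461). Its neighbours on chromosome 19 did not share this value: Ifit3 had counts of 174, 268 and 381 in KO lean mice and 162, 326 and 460.3 in WT lean mice, with the KO lean values inside the WT range throughout and a log2 FC of -0.18 (SE 0.22, limma BH-adjusted p = 0.632). Ifi44, a cytoplasmic protein, had counts of 91.5, 135 and 168 in KO lean mice and 59.5, 80.6 and 111 in WT lean mice. Of the KO lean mice 5 were above the highest WT lean mouse, and the log2 FC was 0.60 (SE 0.16, limma BH-adjusted p = 0.0461).

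In the antigen-presentation group, Psmb9 (LMP2), a catalytic subunit of the immunoproteasome, had counts of 261, 375 and 613 in KO lean mice and 116, 257 and 339.7 in WT lean mice, and 5 of 7 KO lean mice were above the WT range. Psmb9 had a log2 FC of 0.84 (SE 0.24, limma BH-adjusted p = 0.0488). Tap1, a subunit of the transporter that carries peptides into the endoplasmic reticulum, starts next to Psmb9 on the other strand and had counts of 470.2, 696 and 784 against 299, 479.7 and 866. The KO lean values of Tap1 lay inside the WT range, and its log2 FC was 0.37 (SE 0.22, limma BH-adjusted p = 0.284). Psmb8, another immunoproteasome subunit, had a log2 FC of 0.06 (limma BH-adjusted p = 0.805).

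Of the transcription factors, Irf7, which amplifies type I interferon production, was called. Its counts were 699, 865 and 2174 in KO lean mice and 539, 725 and 834 in WT lean mice, so 6 of 7 KO lean mice were above the WT range and 1 of them, KO lean replicate 4, was far above the rest. The log2 FC was 0.61 (SE 0.20, limma BH-adjusted p = 0.0722). Without KO lean replicate 4 it was 0.43, with an adjusted p of 0.113 in limma. Irf7 was called in 6 of the 14 fits that each left out 1 mouse, and the call was lost without KO lean replicate 3, 4 or 6 or WT lean replicate 2, 3, 5, 6 or 7. The subunits of the response element complex, Stat2, with counts of 1444, 1792 and 1897 against 1247, 1711 and 2524, and Irf9, with 785, 932 and 1105 against 582, 892 and 1004, overlapped, with 1 KO lean mouse above the WT lean range of Irf9, and had log2 FCs of -0.01 and 0.19.

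Several of the best-known interferon-stimulated genes had values that did not pass the test. Isg15, a ubiquitin-like modifier, had counts of 112, 178 and 190.4 in KO lean mice and 68.7, 128 and 174 in WT lean mice, a log2 FC of 0.37 (SE 0.20, limma BH-adjusted p = 0.24). Iigp1 had a log2 FC of 0.01, with counts of 13772 to 18888 in KO lean mice and 11146 to 18671 in WT lean mice. Bst2 and Eif2ak2, the kinase PKR that halts translation on double-stranded RNA, had log2 FCs of -0.29 and -0.30 (limma BH-adjusted p = 0.166 and 0.158).

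**Figure D2:**
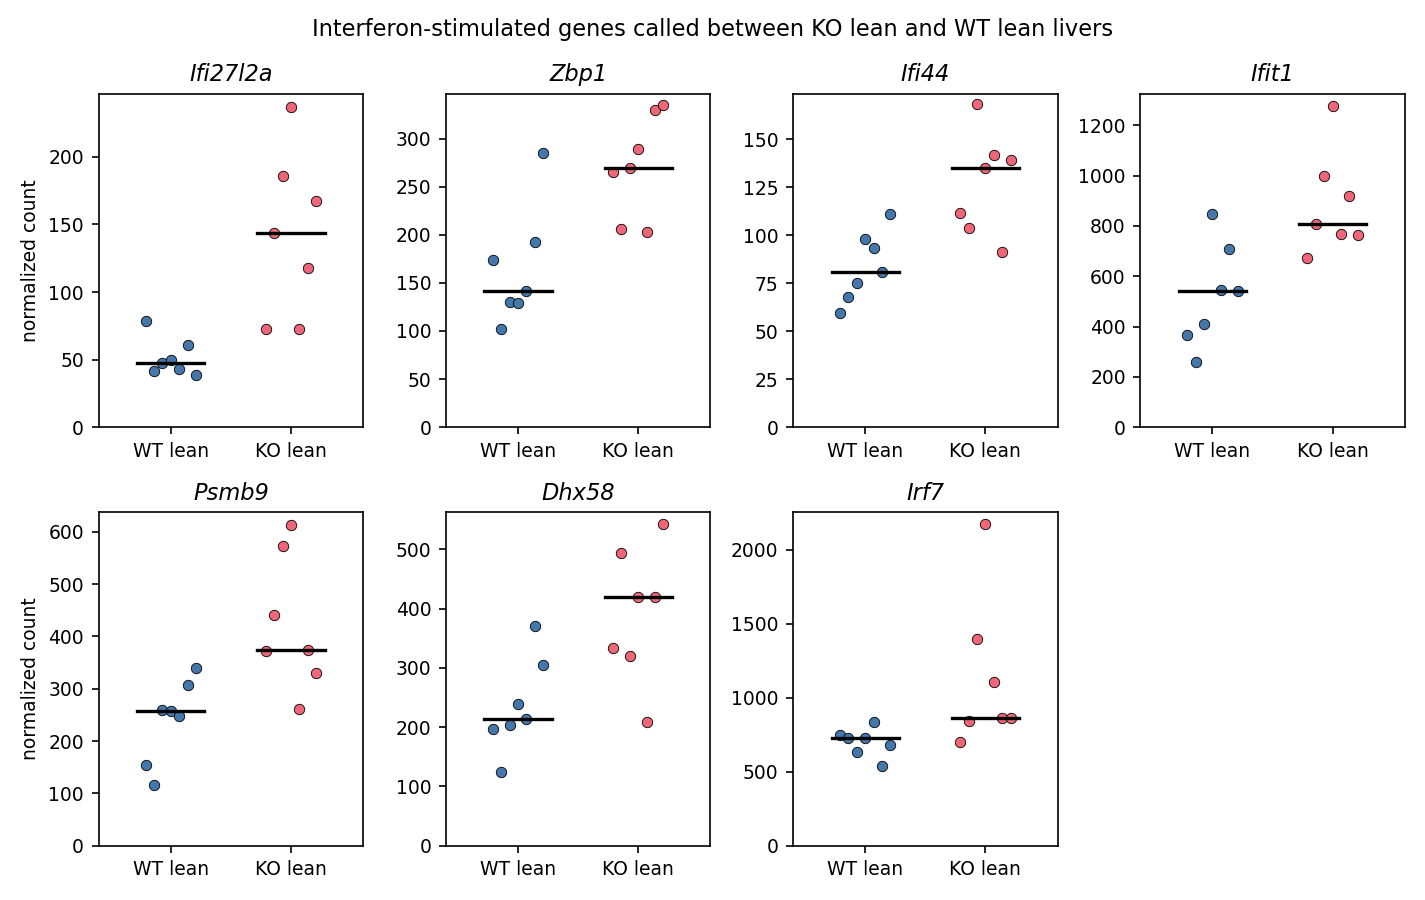
Normalized counts of the 7 genes called between KO lean and WT lean livers, with a point for each mouse (7 per group), a line at the median and a vertical axis that starts at 0 in each panel. Ifi27l2a has 5 KO lean mice above every WT lean mouse (highest 78.5), and in the Irf7 panel KO lean replicate 4 stands alone at 2174.

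These calls depended on how the mice were treated in the fit. The identifiers of the mice open with a number that several mice of a group share, whose meaning the labels do not give. Number 23 occurs in both KO obese and KO obese+RvE1 mice. When that number entered the fit as a random block, 0 of the 7 genes were called (limma BH-adjusted p from 0.138 to 0.171), when 3 of all genes were. Leaving out single mice gave between 3 called members (without WT lean replicate 2, or without KO lean replicate 4) and 8 (without WT lean replicate 4). Of all genes 2.99%, 3.34% and 6.92% were called in those fits, in that order. Ifi27l2a, Zbp1 and Ifit1 were called in each of the 14 fits that left out 1 mouse. Psmb9 was called in 12 of them (not without KO lean replicate 4 or WT lean replicate 2). Dhx58 was called in 8, and not without KO lean replicate 2, 4, 6 or 7 or WT lean replicate 2 or 5. Ifi44 was called in 7, and not without KO lean replicate 3, 4, 5 or 7 or WT lean replicate 1, 2 or 3. Scaling to equal read totals, which shifted the all-gene median log2 FC by -0.12, left 4 called and 28 of 46 above 0. The median log2 FC was then 0.09 for the members and -0.12 for all genes. At that scaling 7.67% of all genes were called. With trimmed-mean (TMM) scaling 7 were called and 36 of 46 were above 0, when 6.63% of all genes were called. With libraries weighted by quality 5 were called, all higher, when 11.8% of all genes were called. Without the mice of number 20 it was also 5, when 10.5% of all genes were called. Without WT lean replicate 1, or without KO lean replicate 5, Parp14 was called lower beside 6 members called higher.

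Markers of Kupffer cells were also higher in KO lean mice. Of the 9 markers listed for this cell 8 were in the table, none at 0, and 6 of the 8 were called higher in KO lean mice: Clec4f (log2 FC 0.98), Vsig4 (0.84), Timd4 (0.77), Cd5l (1.32), Marco (1.46) and Csf1r (0.60). The summed count of the 8 ran from 6767 to 14037 in KO lean mice and from 2898 to 6454 in WT lean mice, with no overlap. KO lean replicate 4, which had the highest Irf7, Ifi27l2a, Psmb9 and Ifit1 counts, also had the highest sum. KO lean replicate 2 had the next highest sum, 10976. Over all 46 genes, replicate 4 had the highest count in its group for 12 and the lowest for 5. Replicate 2 had the highest count for 2 and the lowest for 7. Of 4 B cell markers Cd79b and Ms4a1 were called higher as well (log2 FCs of 0.88 and 1.09), as were 1 of 5 monocyte and dendritic cell markers, Ccr2 (0.78, where the median of the 5 was 0.03), and 1 of 7 endothelial markers, Fcgr2b (0.64, where the median of the 7 was 0.29), and the markers of plasmacytoid dendritic cells, neutrophils, stellate cells and hepatocytes gave 0 calls. The part of these cells in the values of the interferon-stimulated genes was not tested.

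**Figure D3:**
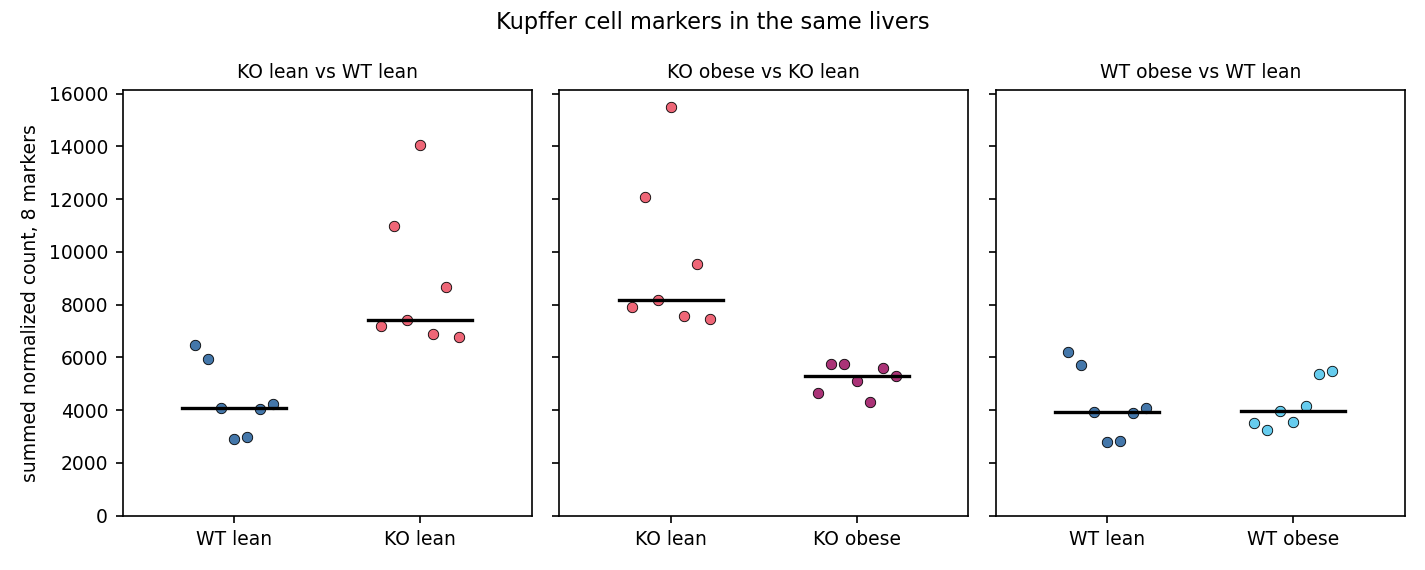
Summed normalized count of the 8 listed Kupffer cell markers in each mouse (points, 7 per group; line, median) for KO lean against WT lean, KO obese against KO lean and WT obese against WT lean, on axes that start at 0. The KO lean sums (6767 to 14037, and 7458 to 15480 in the diet table) overlap neither WT lean nor KO obese mice, whereas WT obese and WT lean mice overlap.

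The next question was what the high fat diet does to these genes in mice without ChemR23. In KO obese compared with KO lean mice 4 of the 46 genes were called (8.7%), 1 higher and 3 lower, when 10.4% of all genes were called, 4.97% higher and 5.42% lower. The 3 lower genes were Isg20, Ifi27l2a and Irf7, and the higher gene was Ifit3. The median log2 FC of the 46 was 0.01 and the range was from -1.10 to 0.78. This comparison shares its KO lean mice with the preceding comparison, so the Ifi27l2a and Irf7 values in KO lean mice enter both.

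Isg20, an exonuclease that degrades single-stranded RNA, lies at chr7:78913424-78920396 on the plus strand. Its counts were 54.5, 75.2 and 90.0 in KO obese mice and 82.2, 114 and 199 in KO lean mice, and 6 of 7 KO obese mice were below every KO lean mouse. The log2 FC was -0.68 (SE 0.17, limma BH-adjusted p = 0.0163). Ifi27l2a had counts of 42.3, 66.6 and 105.5 in KO obese mice and 80.1, 158.5 and 261 in KO lean mice, with 5 KO obese mice below the KO lean range. For Ifi27l2a the log2 FC was -1.10 (SE 0.28, limma BH-adjusted p = 0.0181).

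Irf7 had counts of 647.5, 681 and 894 in KO obese mice and 769, 953 and 2398 in KO lean mice, and 4 of the KO obese mice were below the KO lean range. The Irf7 log2 FC was -0.66 (SE 0.20, limma BH-adjusted p = 0.037). Without KO lean replicate 4, which held the highest value of Irf7, Isg20 and Ifi27l2a, the log2 FCs were -0.49 for Irf7 and -0.56 for Isg20 (limma BH-adjusted p = 0.0436 and 0.0209), below the fold required, while Ifi27l2a was still called.

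Ifit3, which forms a complex with Ifit1 on RNA, went the other way. Its counts were 305, 632 and 773 in KO obese mice and 191, 295.5 and 419.7 in KO lean mice, so 5 of 7 KO obese mice exceeded every KO lean mouse. The log2 FC was 0.78 (SE 0.22, limma BH-adjusted p = 0.0305). Its partner Ifit1 had a log2 FC of -0.01 in the same mice (limma BH-adjusted p = 0.973).

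A further 5 members passed the adjusted p-value but not the fold, so 9 of the 46 passed it, against 24.1% of all genes: Zbp1 at a log2 FC of -0.54, and Gbp7 at 0.50, Mx2 at 0.57, Parp14 at 0.51 and Eif2ak2 at 0.36. Gbp7 belongs to the guanylate-binding proteins, which assemble on the vacuoles of microbes, and Mx2 is a gene of the dynamin-like GTPase family. Of the 46 log2 FCs 24 were above 0, near the 49.8% of all genes. Among families, the log2 FCs of the 4 guanylate-binding proteins were above 0 and those of the 4 transcription factors below 0. Under scaling to equal read totals 1 of the 4 transcription factors was above 0.

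The split between higher and lower calls moved with the scaling. With equal read totals, which shifted the all-gene median by 0.14, 5 members were called, 4 higher and 1 lower (Gbp7, Ifit3, Mx2 and Parp14, and Ifi27l2a). At that scaling 11.8% of all genes were called. With libraries weighted by quality 7 were called, 5 higher and 2 lower, when 15.2% of all genes were called. Blocking at random on the identifier number left 2 called, Ifi27l2a (limma BH-adjusted p = 0.076) and Isg20 (0.0861), when 5.28% of all genes were called.

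Kupffer cell markers were lower in the same mice. Of the 8 listed, 5 were called lower in KO obese mice: Clec4f (log2 FC -0.97), Vsig4 (-0.73), Timd4 (-0.90), Folr2 (-0.73) and Cd5l, the largest fall among them. The summed count ran from 4312 to 5754 in KO obese mice and from 7458 to 15480 in KO lean mice, with no overlap. All 4 B cell markers were called lower, among them Ms4a1 at -1.68, Cd79a at -0.94 and Cd79b at -0.94, as were 2 of the 5 T and NK cell markers tested, Cd3g and Klrb1c, and 2 of 7 endothelial markers, Clec4g and Fcgr2b. Their part in the lower Isg20, Ifi27l2a and Irf7 counts was not tested.

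In WT obese compared with WT lean mice 0 of the 46 genes were called by limma, when 3.8% of all genes were called. With no fold required 2 passed the adjusted p-value, against 6.27% of all genes, and 7 of the 46 had an unadjusted p below 0.05 (4 higher and 3 lower, 15.2%), against 18.2% of all genes. DESeq2 called 1, Psmb9, when it called 5.21% of all genes, and edgeR called 0, when it called 4.01%. The smallest p-value belonged to Bst2, with counts of 787, 1021 and 1272 in WT obese mice and 1141, 1382 and 1759.5 in WT lean mice. Of the WT obese mice 6 were below every WT lean mouse, and the log2 FC was -0.53 (SE 0.12, limma BH-adjusted p = 0.0227), a fold below the required size.

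Ifih1 had counts of 870.3, 1061 and 1374 in WT obese mice and 582, 802 and 1032 in WT lean mice, and 5 WT obese mice were above the WT lean range. Its log2 FC was 0.43 (SE 0.13, limma BH-adjusted p = 0.0855), again below the fold. Psmb9 had counts of 211, 386 and 492 against 112, 246 and 329, also with 5 WT obese mice above the range, and a log2 FC of 0.71 (SE 0.24, limma BH-adjusted p = 0.11). Without WT obese replicate 1, which had the lowest count of 28 of the 46 genes in its group, 3 members were called higher: Psmb9, Ifit1 and Gbp6. In that fit 5.23% of all genes were called. The summed Kupffer cell markers overlapped, from 3240 to 5477 in WT obese and 2781 to 6205 in WT lean mice, and 0 of the 8 markers were called.

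The 4 genes called in KO mice had these values on the same diet in WT mice. Ifi27l2a had counts of 23.8, 47.7 and 97.5 in WT obese mice and 37.2, 45.6 and 75.4 in WT lean mice, a log2 FC of -0.01 (SE 0.29), with the obese range reaching past the lean range at both ends. Irf7 had 498, 606 and 689 against 518, 696 and 798, a log2 FC of -0.15 (SE 0.11), and overlapped almost throughout. Isg20 had a log2 FC of -0.54 (limma BH-adjusted p = 0.217) and Ifit3 of 0.46 (limma BH-adjusted p = 0.359), each in the direction seen in KO mice.

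**Figure D4:**
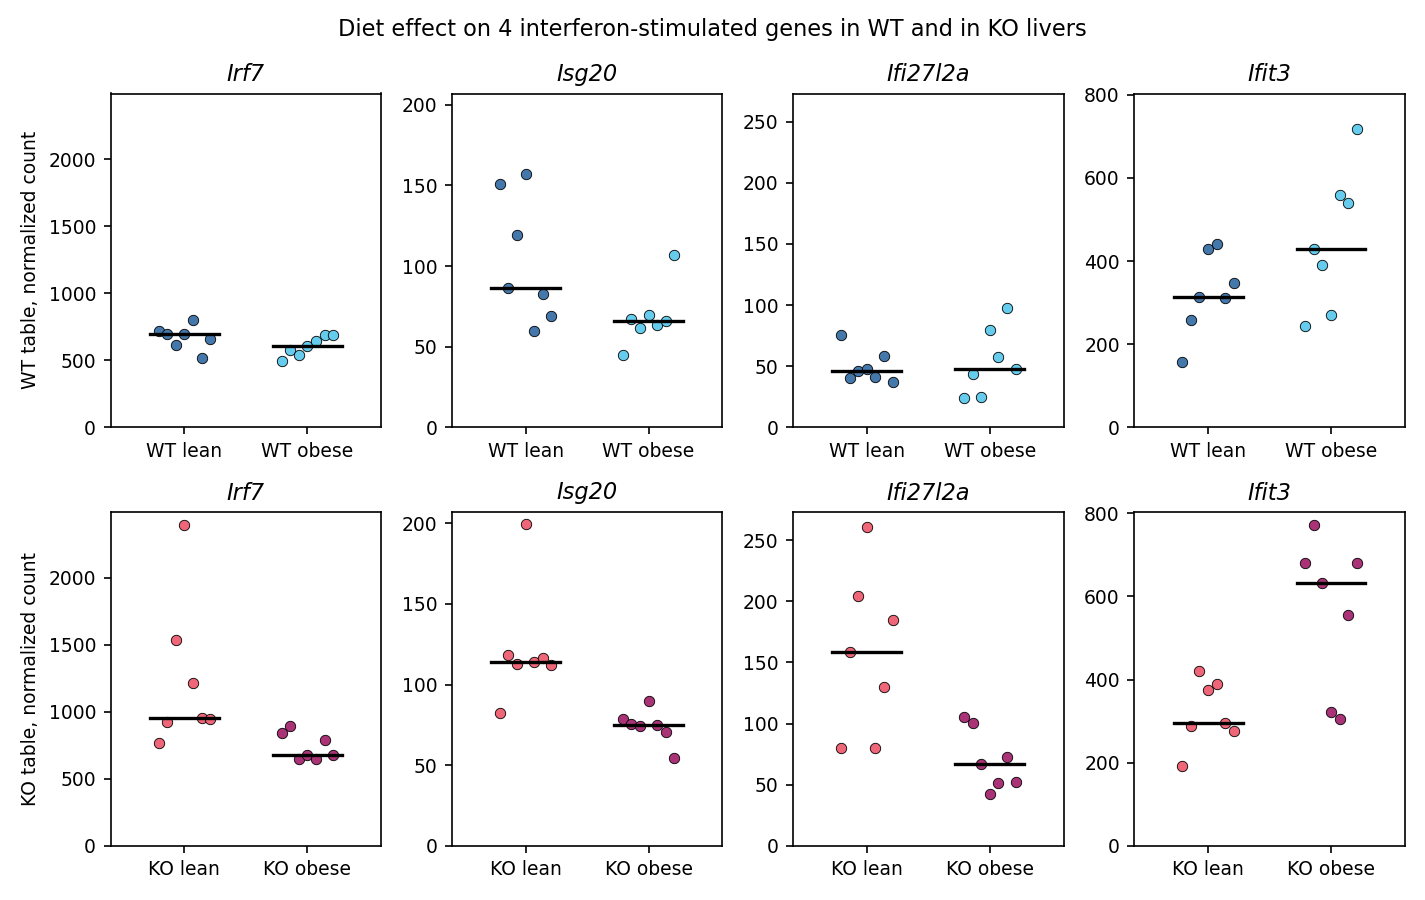
Normalized counts of Irf7, Isg20, Ifi27l2a and Ifit3 in each mouse (points, 7 per group; line, median), in the WT diet table (top row) and the KO diet table (bottom row), on axes that start at 0 and are shared down each column. KO lean mice stand above KO obese mice for Irf7 (medians 953 and 681), Isg20 (114 and 75.2) and Ifi27l2a (158.5 and 66.6) and below them for Ifit3 (295.5 and 632).

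Whether the diet effect differed between the genotypes was tested directly, as the KO diet effect minus the WT diet effect over 28 mice. At an adjusted p below 0.1, 0 of the 46 genes passed, when 0.0071% of all genes did, and 6 of the 46 had an unadjusted p below 0.05 (13.0%), against 18.2% of all genes. The smallest adjusted p-values were those of Psmb9, with a difference of -1.04 (SE 0.33, limma BH-adjusted p = 0.142), and Ifi27l2a, with a difference of -1.09 (SE 0.42, limma BH-adjusted p = 0.176). Eif2ak2 had a difference of 0.46, Dhx58 of -0.65, Irf7 of -0.51 and Zbp1 of -0.58, with adjusted p-values from 0.211 to 0.258 in limma. DESeq2 passed 1 of the 46, Psmb9, while it passed 930 of all genes (6.6%). Limma with quality weights passed 6 while it passed 2537 of all genes (18%).

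In obese mice loss of ChemR23 gave 0 called members. In KO obese compared with WT obese mice 0.0141% of all genes were called, 0 of the 46 had an unadjusted p below 0.05, against 2.25% of all genes, and edgeR and DESeq2 also called 0 members. The smallest unadjusted p-values were 0.0724 for Oas1a, 0.0759 for Mx2 and 0.0827 for Ifit2, and the adjusted values were 0.9999 in limma. Oas1a had counts of 37.9, 74.8 and 112 in KO obese mice and 30.2, 44.9 and 74.2 in WT obese mice, with 4 KO obese mice above the WT obese range and a log2 FC of 0.46 (SE 0.24). The median log2 FC of the 46 was 0.10. In fits that each left out the mice of 1 identifier number it ran from -0.01 to 0.27.

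For the 7 genes called in lean mice, the log2 FCs in obese mice ran from -0.19 to 0.33, with 6 of the 7 above 0. Ifi27l2a had counts of 40.6, 64.2 and 103 in KO obese and 26.1, 52.3 and 107 in WT obese mice, inside the WT obese range throughout. Psmb9 had a log2 FC of -0.19 (SE 0.20), Irf7 of 0.10 (SE 0.11) and Ifit1 of 0.28 (SE 0.30). The difference between the lean and the obese genotype effects is the same contrast as the diet by genotype term above, in which none of the 46 passed.

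RvE1 in obese mice was tested within each genotype. In WT obese+RvE1 compared with WT obese mice 0 of the 46 genes were called and 0% of all genes, with 1 member, Psmb8, at an unadjusted p below 0.05 (2.17%, against 6.08% of all genes), and edgeR and DESeq2 called 0 members. Psmb8 had counts of 378, 431 and 447 with RvE1 and 393, 482 and 668.5 without, every treated mouse lying below the untreated median and 1 below the untreated range. Its log2 FC was -0.23 (SE 0.10, limma BH-adjusted p = 0.798). The next smallest p-values were those of Rsad2, with a log2 FC of 0.40 (SE 0.21, limma BH-adjusted p = 0.868), and Oas3, with 0.59 (SE 0.32, limma BH-adjusted p = 0.883). The interferon-stimulated genes split by mouse within the treated group: the 3 mice sharing number 30 held the lowest count of 41 of the 46 genes, and the 4 sharing number 7 the highest count of 39. Without the former the median log2 FC of the members was 0.41, and without the latter it was -0.26, against 0.10 with all mice.

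In KO obese+RvE1 compared with KO obese mice 0 of the 46 genes and 0% of all genes were called, and 6 members had an unadjusted p below 0.05, all higher with RvE1 (13.0%, against 3.45% of all genes higher at that p). They were Tap1, Oasl1, Isg15, Dhx58, Irf7 and Igtp, and edgeR and DESeq2 called 0 members. Tap1 had counts of 604, 955 and 996 with RvE1 and 356, 584 and 869 without, with 5 of 7 treated mice above the untreated range. Its log2 FC was 0.60 (SE 0.19, limma BH-adjusted p = 0.557).

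Oasl1, a relative of the oligoadenylate synthetases that holds back translation of Irf7, had counts of 236, 474 and 592 with RvE1 and 113, 304 and 399.9 without. Of the treated mice 5 were above the untreated range, and its log2 FC was 0.73 (SE 0.27, limma BH-adjusted p = 0.56). Isg15 had a log2 FC of 0.53 (SE 0.22, limma BH-adjusted p = 0.577) and overlapped more, with 2 treated mice above the range. In these mice 0 markers of other cell types were called. The 4 B cell markers had a median log2 FC of 0.93, with sums of 38.6 to 134 with RvE1 and 9.27 to 54.4 without, the 8 Kupffer cell markers a median of 0.15, with sums of 3571 to 9037 and 4329 to 5809, and the 4 neutrophil markers a median of -1.64, with sums of 24.4 to 846 and 56.8 to 1099. Their part in the values of Tap1 and the other 5 members was not tested. Both RvE1 comparisons use untreated obese mice that also enter the diet and genotype comparisons. The RvE1 effect did not pass a test of difference between genotypes for any member: 0 of 46 passed, as did 0% of all genes, 0 members had an unadjusted p below 0.05, against 2.39% of all genes, and the smallest adjusted p was 0.9999 in limma.

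**Figure D5:**
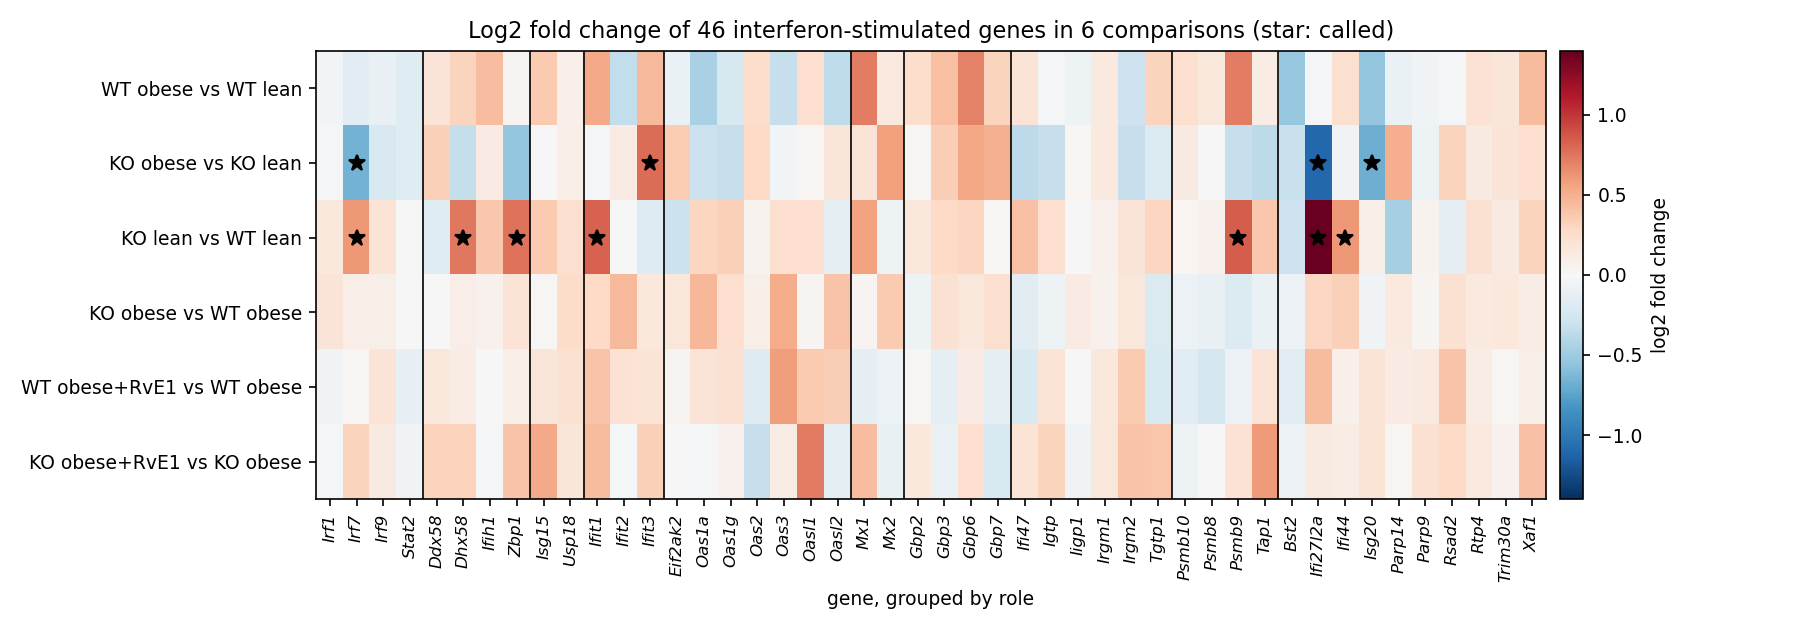
Log2 fold change of each of the 46 interferon-stimulated genes (columns, grouped by role) in each of the 6 comparisons (rows), in red where the first-named group is higher and blue where it is lower, on a scale from -1.4 to 1.4, with a star where the gene was called. Stars occur in 2 rows: 7 in KO lean vs WT lean, all red, and 4 in KO obese vs KO lean, 3 blue (Irf7, Ifi27l2a, Isg20) and 1 red (Ifit3).

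The rest of the interferon pathway was read from lists of names, which were also chosen with earlier results of these data known. Of 10 interferon genes 1 was in the WT diet, KO diet and lean genotype tables, with a count of at most 23.6 in any mouse there. The receptors gave 0 calls in any of the 6 comparisons: Ifnar2 had a log2 FC of -0.32 in KO obese compared with KO lean mice (limma BH-adjusted p = 0.0503, below the fold), and Ifngr2 had 0.63 in KO lean compared with WT lean mice (limma BH-adjusted p = 0.123). Ifnar1 ran from -0.22 to 0.10 and Ifngr1 from -0.12 to 0.20 over the 6 comparisons.

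Of the 9 signalling genes 1 was called in a diet comparison: Irf2, a factor that competes for the same response element, with counts of 1769, 2443 and 2892 in KO obese mice and 721, 1126 and 1993 in KO lean mice. Of the KO obese mice 5 were above the KO lean range, and its log2 FC was 1.00 (SE 0.19, limma BH-adjusted p = 0.00521). The lists of nucleic acid sensing (12 symbols, some of them synonyms, with 10 in the diet tables) and of restraint (8 genes, among them Socs1) gave 0 calls.

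Another 48 interferon-stimulated genes that are not among the 47 were listed in the tables. In KO lean compared with WT lean mice 4 of them were called, against 6.65% of all genes, all higher: Ifi204 (log2 FC 0.79), a sensor of DNA, Herc6 (0.65), the ligase that attaches Isg15 to proteins in mice, Slfn2 (0.59) and Epsti1 (0.66). In KO obese compared with KO lean mice Samd9l (0.73) and Znfx1 (0.66) were called higher and Tor3a (-1.10) lower, against 10.4% of all genes called. In WT obese compared with WT lean mice Nmi (0.67) and Apol9a (0.63) were called higher, against 3.8% of all genes called. As shares of the 48 these were 8.33%, 6.25% and 4.17%. The 3 remaining comparisons gave 0 calls in these lists.

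Within a group, single mice were often lowest or highest in many of the genes at once. The median SD of the members' log2 counts was 0.47 in WT lean mice, against 0.29 for all genes, and 0.31 in KO lean mice, against 0.33. WT lean replicates 1 and 2 had the lowest count of 17 and 16 of the 46 genes in their group and replicate 7 the highest count of 17. In WT obese mice replicate 1 was lowest in 28 and replicate 7 highest in 21, and in KO obese+RvE1 mice replicate 6 was lowest in 22.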

How the data were processed

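RNA from the livers of 42 male mice, with 1 library per mouse, was prepared by the authors as TruSeq stranded libraries, sequenced on a NovaSeq instrument, aligned to mm10 with Bowtie2 and assigned to genes with featureCounts. Versions, annotation and strandedness are not given in the sources used. The authors ran DESeq2 separately for 6 comparisons, and the deposited signal values are gene reads scaled by the size factor of each library, which may be compared only within a table. Whole reads were recovered from them (within 0.1 reads for all values), with 15992556 to 43841273 reads per library. Beside these, the authors deposited log2 fold changes, their standard errors (score values) and p-values from DESeq2, and none of them was used.

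Samples were grouped by their GEO labels, and replicates were numbered within a group. The labels do not say whether mice shared litters or cages, so p-values measure the spread between these mice. Values were analysed as log2(normalized count + 1) in limma 3.58.1 (lmFit, eBayes with trend; R 4.3.3), two-sided, for genes averaging 5 or more normalized counts, with BH adjustment over all genes of a table. Calls required an adjusted p below 0.1 and a fold change above 1.5. Interactions of genotype with diet and with RvE1 were fitted over 28 libraries, each difference within its own table, with no fold threshold. Log2 fold changes are on the scale of the value plus 1, which understates changes of low genes. The fit was tested on simulated data. edgeR 4.0.16, DESeq2 1.42.0, other pseudocounts, scalings, filters and thresholds, quality weights, a random block on the identifier number and fits without single mice or numbers were alternatives.

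Levels per kb used exon lengths of GENCODE vM21 (mm10), and start-site windows came from RefSeq (GRCm38.p6). The members and lists were chosen with earlier results of these data known. Genes were named by rule: in each comparison the called members, up to 8 per direction, or the 3 with the smallest p where fewer than 3 were called, besides a set chosen by role. From the other lists genes were named where called, besides the receptors and Socs1, and 2 genes that the rule names are not reported here. Other genes named here, such as Gbp7, Mx2 and Parp14 in the KO diet comparison, were chosen after their values were seen.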

Additional observations from a re-analysis of the deposited data

Results flagged for a closer look

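In a search for mice far from the rest of their group, the gap between the lowest or highest mouse and its nearest neighbour was divided by the range of the group and compared with Dixon's 95% limit for 7 mice. Of 186 pairs of a named gene and a group, 14 (7.53%) passed, when chance alone gives about 1 in 20. The most abundant member, Iigp1, had a low mouse in WT lean (replicate 2, ratio 0.602, with 10746 against 14593 for the next mouse) and in WT obese (replicate 1, ratio 0.57). Ifit1 was low in the same WT obese mouse (ratio 0.581, 248 against 553).

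In KO lean mice Isg20 was high in replicate 4 (ratio 0.587, 199 against 119), the mouse that also held the highest Irf7 and Ifi27l2a counts and the lowest Stat2 count (ratio 0.684, 1592 against 1913). Tap1 was low in KO lean replicate 5 (ratio 0.63). In KO obese mice Igtp was low in replicate 4 (ratio 0.724, 674 against 1014), Mx2 in replicate 1 (ratio 0.579), and Oasl2, Rsad2 and Usp18 in replicate 5 (ratios 0.606, 0.622 and 0.583).

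In WT obese+RvE1 mice Ifi27l2a was low in replicate 3 (ratio 0.719, 36.7 against 75.7), as was Psmb9 (ratio 0.608, 304 against 387). Stat2 was low in KO obese+RvE1 replicate 6 (ratio 0.582, 1018 against 1595).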

How the results depend on the processing

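Leaving out single mice gave 0 to 3 called members for WT obese against WT lean (3 without WT obese replicate 1), 3 to 7 for KO obese against KO lean (3 without KO lean replicate 4, 7 without KO lean replicate 5 or KO obese replicate 4), 3 to 8 for KO lean against WT lean and 0 to 3 for the diet by genotype term (3 without KO lean replicate 5). It gave 0 in the other comparisons. The share of all genes called moved as well. It was 5.23% without WT obese replicate 1 for WT obese against WT lean. For KO obese against KO lean it was 8.37% without KO lean replicate 4, 14.1% without KO lean replicate 5 and 12.2% without KO obese replicate 4. For the diet by genotype term 13.1% of all genes passed without KO lean replicate 5. Leaving out all mice of an identifier number gave 0 to 3 for WT obese against WT lean and 1 to 7 for KO obese against KO lean. For KO lean against WT lean it gave 0 to 9. For KO lean against WT lean the 0 arose without number 9, 21 or 26, when 0.115%, 0.246% and 0.0614% of all genes were called. The 9 arose without number 8, when 8.56% of all genes were called. For KO obese against KO lean the 1 arose without number 31, when 4.49% of all genes were called. Without number 10, 1 member (Tap1) was called for KO obese+RvE1 against KO obese, when 2.1% of all genes were called.

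Blocking at random on the identifier number, 2 members were called for KO obese against KO lean and 0 for KO lean against WT lean. Of all genes 5.28% and 0.023% were called. The correlation within a number was 0.237 and 0.217. With quality weights the counts were 1 for WT obese against WT lean, 7 for KO obese against KO lean and 6 for the diet by genotype term. The shares of all genes were 5.48%, 15.2% and 18%. For KO lean against WT lean quality weights gave 5, when 11.8% of all genes were called. DESeq2 gave 1 for WT obese against WT lean and 1 for the diet by genotype term, Psmb9 in both, against 5.21% and 6.6% of all genes. Equal read totals gave 4 for KO lean against WT lean, when 7.67% of all genes were called. With no fold threshold the counts were 2 for WT obese against WT lean and 9 for KO obese against KO lean. With an absolute log2 fold change above 1.5, a stricter reading of the study's threshold, the counts were 0 for KO obese against KO lean and 0 for KO lean against WT lean. The causes were not tested. Of the values for single genes, 0 that were called changed sign. The replicate numbers follow accession order. No paired analysis was possible because the groups compared share at most 1 identifier number (23, in KO obese and KO obese+RvE1 mice). With the identifier numbers as blocks, or without its mice, 0 members were called for KO obese+RvE1 against KO obese. Depth limits what can be seen in members with few reads, such as Oas3.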
